A study of Mus musculus with 5 samples.

Results

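The IFI200 and AIM2-like cluster is a group of related genes on mouse chromosome 1 that encode cytosolic and nuclear DNA-binding proteins. The genes were taken from a list of symbols (Ifi203, Ifi204, Ifi205, Ifi207, Ifi208, Ifi209, Ifi211, Ifi213, Mndal, and Aim2), mapped to Entrez gene identifiers, and all 10 had counts among the 17058 genes with at least 1 listed transcript. RNA was sequenced from bone marrow-derived macrophages (BMDMs). The BALB/c macrophages had shared a coculture of 48 hours with either WT (2 samples) or Adam17-/- (3 samples) 4T1 cells, a line of mouse mammary carcinoma. ADAM17 is a protease that releases growth factors and receptors from the cell surface, and a porous membrane separated the 2 cell types in every coculture. According to the study, marrow of young female mice was cultured in M-CSF, and Adam17 was edited with CRISPR/Cas9 in the cancer cells only. The sequenced macrophages of both groups thus carried an intact Adam17 gene, which was expressed at 197.5 and 199.6 CPM in the WT cocultures and at 151.6, 163.8, and 160.5 CPM in the Adam17-/- cocultures, so that its level does not check the labels. The labels give the same designation, 2.8, to the cancer cells of all 3 Adam17-/- cocultures, so that the absence of Adam17 and any other property of this line cannot be told apart.

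Proteins of this family, named PYHIN, carry a pyrin domain, which binds other pyrin domains, and usually 1 or more HIN domains, which bind double-stranded DNA. AIM2 is the best known member: on meeting DNA in the cytosol it recruits the adaptor ASC (gene Pycard), which activates caspase-1 to mature the cytokines IL-1β and IL-18 and to cleave gasdermin D. The neighbouring IFI200 genes were named for their induction by interferon, and several of the proteins act on transcription or on interferon production in macrophages.

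The members span chr1:173349547-174031755 of GRCm38, a stretch of 682.2 kb, in the order Aim2, Ifi213, Ifi209, Ifi208, Ifi207, Ifi204, Mndal, Ifi211, Ifi203, and Ifi205. Aim2, Ifi209, and Ifi208 lie on the plus strand and the other 7 on the minus strand. The RefSeq table of promoters, which holds 250 bases before and 50 bases after each transcript start of the reference strain C57BL/6J, had entries for 9 of the 10 members (Ifi204 had none). An interferon-stimulated response element (ISRE), searched as GAAANNGAAA on both strands, was found in 7 of these 9 members, and in 3.99% of the 27025 genes of the table. The matches with 10 bases on each side are shown because most members share them almost letter for letter (capitals mark the ISRE, each on the strand of the gene).
Ifi203: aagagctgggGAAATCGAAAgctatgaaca
Mndal: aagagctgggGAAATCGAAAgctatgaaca
Ifi207: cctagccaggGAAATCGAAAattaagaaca
Ifi211: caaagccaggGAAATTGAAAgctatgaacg
Ifi205: ccaggccaggGAAATTGAAAgctatgaaca
Ifi208: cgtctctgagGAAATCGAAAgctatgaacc
Ifi213: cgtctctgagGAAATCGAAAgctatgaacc
In Ifi203, Mndal, Ifi207, and Ifi211 the match began 35 to 41 bases before a transcript start, and in Ifi208 and Ifi213 58 and 73 bases before it. The match of Ifi205 began 134 bases before its start, and a second match, TTTCACTTTC on the opposite strand, began 24 bases after it. Mndal had a further match at its other transcript start, TTTCTCTTTC, also on the opposite strand. The promoter windows of Aim2 and Ifi209 did not hold these letters. The window of Aim2 (chr1:173420354-173420653) lies inside the span of the gene, which begins at base 173349547 on the plus strand. The beginning of that span was not searched.

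The whole windows of 3 members are shown because they differ both in sequence and in the measurements that follow: Aim2 and Ifi203 had the highest log2 fold changes among the called members, and Ifi207 had the highest level per length and was not called. Capitals again mark the ISRE.
Aim2, chr1:173420354-173420653, plus strand: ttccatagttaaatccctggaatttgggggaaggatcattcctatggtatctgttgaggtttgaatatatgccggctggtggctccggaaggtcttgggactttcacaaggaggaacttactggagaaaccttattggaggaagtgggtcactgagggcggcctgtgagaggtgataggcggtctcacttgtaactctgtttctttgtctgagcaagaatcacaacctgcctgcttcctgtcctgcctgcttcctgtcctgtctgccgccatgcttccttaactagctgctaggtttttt
Ifi203, chr1:173942443-173942742, minus strand: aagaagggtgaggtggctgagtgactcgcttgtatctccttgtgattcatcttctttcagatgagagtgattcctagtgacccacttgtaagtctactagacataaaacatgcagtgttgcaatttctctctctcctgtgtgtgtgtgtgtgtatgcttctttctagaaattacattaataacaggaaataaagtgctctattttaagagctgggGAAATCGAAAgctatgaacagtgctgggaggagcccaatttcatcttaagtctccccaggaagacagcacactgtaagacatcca
Ifi207, chr1:173741760-173742059, minus strand: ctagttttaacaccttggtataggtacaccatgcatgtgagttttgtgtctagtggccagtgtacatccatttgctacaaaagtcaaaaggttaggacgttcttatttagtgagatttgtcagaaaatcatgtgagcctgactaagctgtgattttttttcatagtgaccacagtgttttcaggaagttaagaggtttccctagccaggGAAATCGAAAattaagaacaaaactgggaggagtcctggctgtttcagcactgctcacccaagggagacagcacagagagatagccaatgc
The windows of several members were near copies of each other. Over the aligned bases, Ifi208 and Ifi213 were 98.9% identical, Ifi203 and Mndal 97.6%, Ifi205 and Ifi211 94.0%, and Ifi207 and Ifi211 88.4%. Other motifs were less frequent: AP-1 (TGANTCA) was found in Ifi203, Ifi209, and Mndal and in 8.97% of all genes, PU.1 (GAGGAAGT) in Aim2 and in 3.69% of all genes, and the interferon-γ activated site (TTCNNNGAA) in 0 of the 9 members and in 9.55% of all genes. The AP-1 match of Mndal at its other start, TGAGTCA, lies just before the ISRE match there, and the 2 do not overlap.

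**Figure D1:**
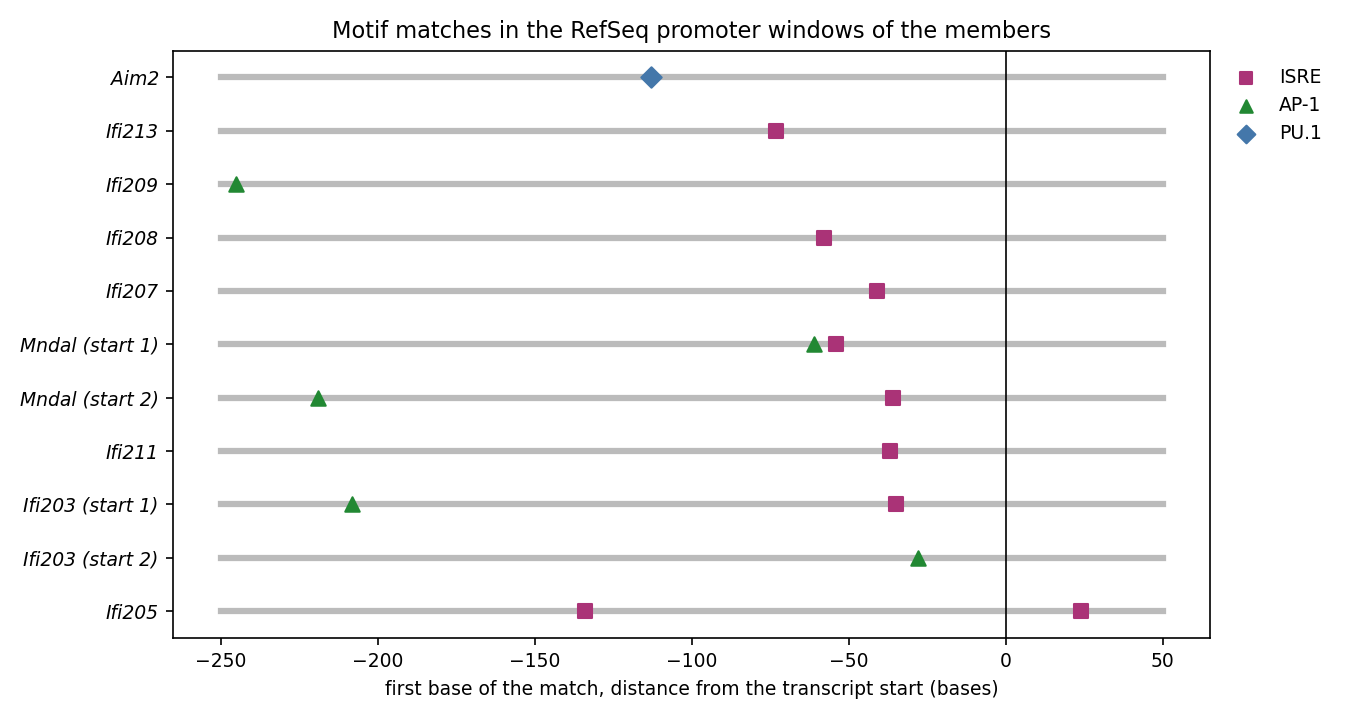
Matches to 3 motifs in the promoter windows of the 9 members with an entry, by the distance of the first base of the match from the transcript start in bases (grey bars: the window searched). The ISRE matches of Ifi203, Mndal, Ifi207, and Ifi211 cluster 35 to 41 bases before a start, and the bars of Aim2 and Ifi209 carry no ISRE symbol.

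To determine how the cluster differed between macrophages cocultured with WT and Adam17-/- 4T1 cells, the expected counts of all genes were tested with edgeR. Levels are given as TMM-normalized CPM, that is, counts scaled to a common library size after adjusting for composition. The libraries held 14658694 to 20788373 counts, and 3 counts, taken as the floor of detection, correspond to 0.157 to 0.197 CPM. All 10 members passed the filter on low counts, but Ifi213 passed it only through Adam17-/- libraries. Of the 10 members, 5 were called higher in the Adam17-/- cocultures at an adjusted p of 0.05 or less (Aim2, Ifi203, Mndal, Ifi204, and Ifi209), whereas 14.9% of the 12576 genes tested were called higher. None of the members was called lower by edgeR, against 16.8% of all genes tested, and at an unadjusted p under 0.05 the count was also 0. DESeq2 and limma gave 0 as well, where 14.9% and 8.04% to 8.08% of all genes tested were called lower. The median log2 fold change was 0.50 over the 10 members and 0.01 over all genes tested.

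Aim2, the DNA sensor of the inflammasome, was expressed at 59.5 and 74.0 CPM in the WT cocultures and at 125.9, 124.6, and 125.8 CPM in the Adam17-/- cocultures. The 3 Adam17-/- libraries were nearly equal and all lay above both WT libraries. The means were 66.7 ± 10.2 (SD, n = 2) and 125.4 ± 0.730 CPM (SD, n = 3), and edgeR gave a log2 fold change of 0.91 (standard error, SE, 0.103, adjusted p = 0.000559), or 1.88-fold. It was the largest change among the called members.

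Ifi203, which encodes the nuclear protein p203, reached 95.1 and 109.7 CPM in the WT cocultures and 181.9, 159.7, and 169.6 CPM in the Adam17-/- cocultures. The groups were well separated, with a log2 fold change of 0.74 (SE 0.0970, adjusted p = 0.000979 from edgeR). Mndal, related to the human myeloid nuclear differentiation antigen, was at 92.0 and 89.9 CPM in the WT and 133.0, 119.6, and 128.9 CPM in the Adam17-/- cocultures. Again no library of the groups overlapped, and the log2 fold change was 0.48 (SE 0.0840, adjusted p = 0.00318 from edgeR).

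Ifi204, whose product p204 acts in DNA sensing upstream of interferon-β, was at 74.6 and 82.7 CPM in the WT cocultures. In the Adam17-/- cocultures it was at 112.9, 109.1, and 103.6 CPM. The log2 fold change was 0.46 (SE 0.0879, adjusted p = 0.00460 from edgeR), with every Adam17-/- library above both WT libraries. The same held for Ifi209, which was at 34.4 and 41.1 CPM in the WT cocultures and at 56.9, 52.9, and 51.5 CPM in the Adam17-/- cocultures, with a log2 fold change of 0.51 (SE 0.104, adjusted p = 0.00631 from edgeR).

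**Figure D2:**
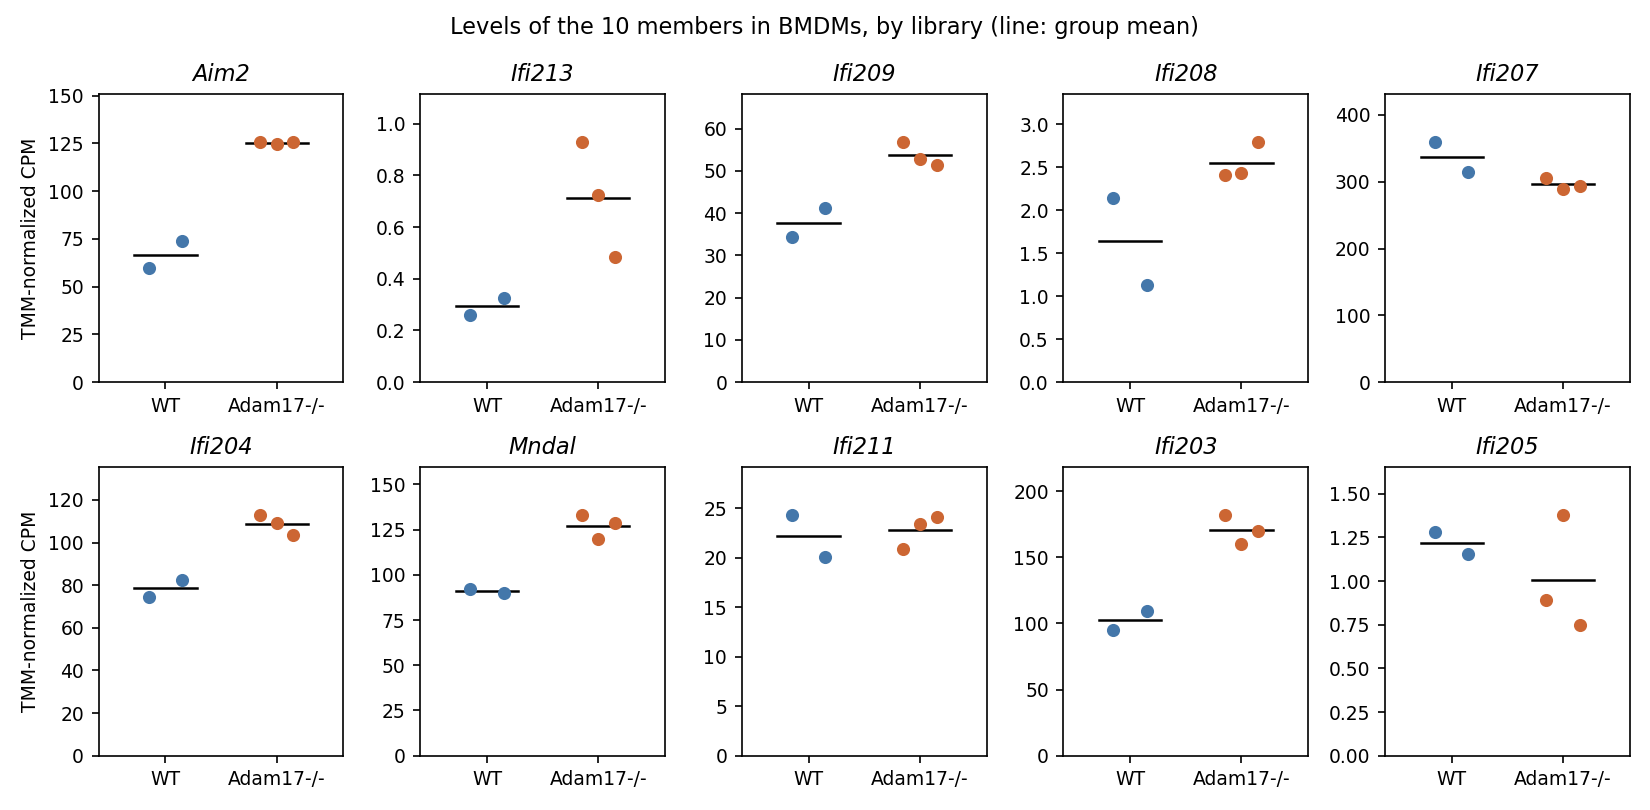
TMM-normalized CPM of the 10 members in each library, in chromosomal order, with 1 point per library, the group mean as a line, and a vertical axis from 0 in each panel (WT, n = 2, and Adam17-/-, n = 3). The Adam17-/- points of Aim2, Ifi209, Ifi204, Mndal, and Ifi203 all lie above the WT points, whereas those of Ifi207 lie below them and those of Ifi211 and Ifi205 overlap with them.

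Ifi207 was not among the called members. This gene, whose product acts on cytokine transcription in macrophages, was at 360.0 and 314.6 CPM in the WT cocultures and at 305.1, 289.4, and 293.3 CPM in the Adam17-/- cocultures. All 3 Adam17-/- libraries thus lay below the WT libraries, by a small margin in the case of WT replicate 2. On the FPKM scale the libraries overlapped, at 96.4 and 88.2 with WT cells and 93.2, 87.5, and 88.6 with Adam17-/- cells. The log2 fold change was -0.19 with a 95% interval from -0.38 to 0.00, and the gene did not pass the test (adjusted p = 0.122 from edgeR). With scaling by library size only, the log2 fold change was -0.040. The value also depended on which WT library was used: without WT replicate 2 it was -0.29 (adjusted p = 0.00747 from edgeR), and without WT replicate 1 it was -0.092 (adjusted p = 0.361). With 1 WT library left, the fit assumes that it varies like the Adam17-/- libraries.

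Ifi211 was at 24.3 and 20.1 CPM in the WT cocultures and at 20.9, 23.4, and 24.1 CPM in the Adam17-/- cocultures. The libraries of the groups were interspersed, and the interval of the log2 fold change (0.04) reached from -0.23 to 0.31. Without WT replicate 2, the log2 fold change was -0.093. Thus neither a direction nor a change beyond these bounds was detected for this gene.

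The remaining 3 members were expressed at low levels. Ifi205, whose product p205 controls expression of the adaptor ASC in macrophages, was at 1.28 and 1.15 CPM in the WT cocultures and at 0.894, 1.38, and 0.748 CPM in the Adam17-/- cocultures, which overlapped. The log2 fold change was -0.28 with an interval from -1.07 to 0.50. Ifi208 was at 2.15 and 1.14 CPM in the WT cocultures and at 2.41, 2.43, and 2.80 CPM in the Adam17-/- cocultures. Its log2 fold change of 0.63 (adjusted p = 0.125 from edgeR) moved with the WT library used, to 1.16 without WT replicate 1 (adjusted p = 0.0251) and to 0.25 without WT replicate 2 (adjusted p = 0.532), again with 1 WT library left. Ifi213 was close to the floor, where 5 and 6 counts stood against 17, 11, and 9.16 counts after coculture with Adam17-/- cells. Its log2 fold change of 1.25 had the widest interval of the members, from 0.14 to 2.37, and an adjusted p of 0.0804 from edgeR.

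In total, every Adam17-/- library lay above both WT libraries in 7 of the 10 members, as in 28.3% of all genes tested, and below them in 1 member, as in 29.7% of all genes tested. Without Ifi213, which the filter admitted through the group where it was higher, it was 6 of 9 members. With a log2 fold change of at least 1 as an additional limit, edgeR called 0 members, against 4.22% of all genes tested in either direction. At an unadjusted p under 0.05 and with the same limit, the count was 1 (Ifi213, which entered the test only through Adam17-/- libraries) and 0 when at least 10 counts were required in every sample, and DESeq2 called 0. Aim2 exceeded the limit, and was then called, in the limma fits on FPKM and with scaling by library size only. It also did so without WT replicate 2, with a log2 fold change of 1.07, whereas without WT replicate 1 the called member was Ifi208.

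**Figure D3:**
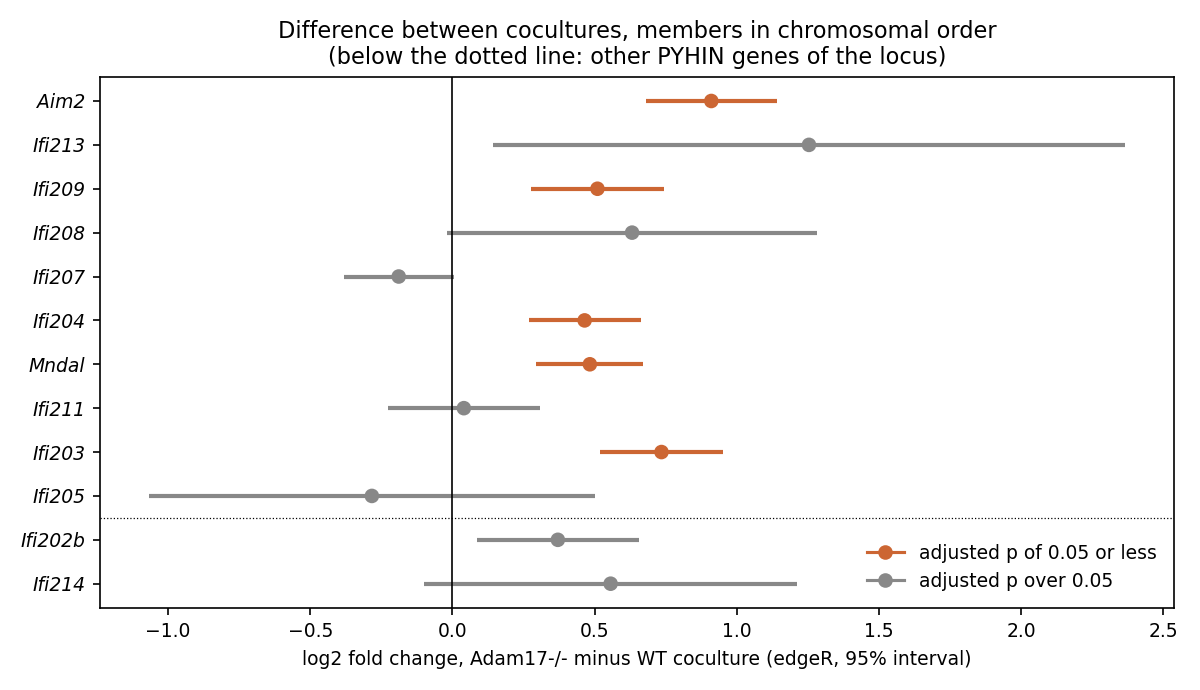
Log2 fold change of the members and of 2 further PYHIN genes of the locus between Adam17-/- and WT cocultures, with the 95% interval from edgeR as a line (orange: adjusted p of 0.05 or less; grey: over 0.05). The intervals of Aim2, Ifi209, Ifi204, Mndal, and Ifi203 lie to the right of 0, and that of Ifi207 lies almost wholly to the left. The intervals of Ifi213 and Ifi202b, which were not called, also lie to the right of 0.

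To compare the members with each other, FPKM values were used, which account for transcript length. In the WT cocultures, Ifi207 had the highest level with 92.3 ± 5.84 FPKM (SD, n = 2), followed by Mndal with 45.9 ± 0.707, Ifi204 with 33.1 ± 3.46, Aim2 with 25.4 ± 4.70, Ifi203 with 21.1 ± 3.21, Ifi211 with 12.1 ± 1.24, and Ifi209 with 10.4 ± 1.64 FPKM. The libraries of Aim2 overlapped with those of Ifi203, and those of Ifi211 with those of Ifi209. Ifi205, Ifi208, and Ifi213 followed with 0.740 ± 0.0283, 0.520 ± 0.212, and 0.105 ± 0.0212 FPKM, without overlap.

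In the Adam17-/- cocultures, the highest level was again that of Ifi207, with 89.7 ± 3.05 FPKM (SD, n = 3), and the second that of Mndal, with 71.0 ± 4.13 FPKM. Aim2, at 52.7 ± 0.568 FPKM, now stood above Ifi204, at 50.5 ± 2.49 FPKM, although their libraries overlapped. Ifi203 followed with 38.8 ± 2.77, Ifi209 with 16.3 ± 0.964, and Ifi211 with 13.8 ± 0.943 FPKM. Ifi209 and Ifi211 thus changed places by their means, here without overlap. In WT replicate 2, Ifi209 already stood above Ifi211, at 11.5 against 11.2 FPKM. Ifi208, at 0.903 ± 0.0751 FPKM, overlapped with Ifi205, at 0.680 ± 0.223 FPKM, and Ifi213 was lowest at 0.290 ± 0.0900 FPKM.

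The sum of the cluster was calculated because reads that match several members move between them but stay in the sum. It was 743.6 and 734.6 CPM in the WT cocultures and 940.9, 883.3, and 900.8 CPM in the Adam17-/- cocultures. With means of 739.1 ± 6.35 (SD, n = 2) and 908.3 ± 29.5 CPM (SD, n = 3), the sum was 1.23-fold higher in the Adam17-/- cocultures, a log2 ratio of 0.30, and no library of the groups overlapped. This ratio depended on Ifi207 and on the scaling. Without Ifi207, the other 9 members summed to 401.8 ± 25.8 and 612.4 ± 21.4 CPM, a log2 ratio of 0.61, and as a sum of FPKM over all 10 members the log2 ratio was 0.47. The sum was not tested, since its members had been chosen with results known.

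The composition of the sum also differed between the groups. Per length, Ifi207 made up 40.7% and 35.8% of the members' summed FPKM with WT cells and 26.8%, 26.9%, and 26.8% with Adam17-/- cells. The share of Aim2 was 9.32% and 11.7% in the WT cocultures against 15.3%, 16.1%, and 15.9% in the Adam17-/- cocultures, and that of Ifi203 was 7.95% and 9.50% against 12.0%, 11.1%, and 11.6%. These shares are taken within a library and do not depend on the scaling between libraries.

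**Figure D4:**
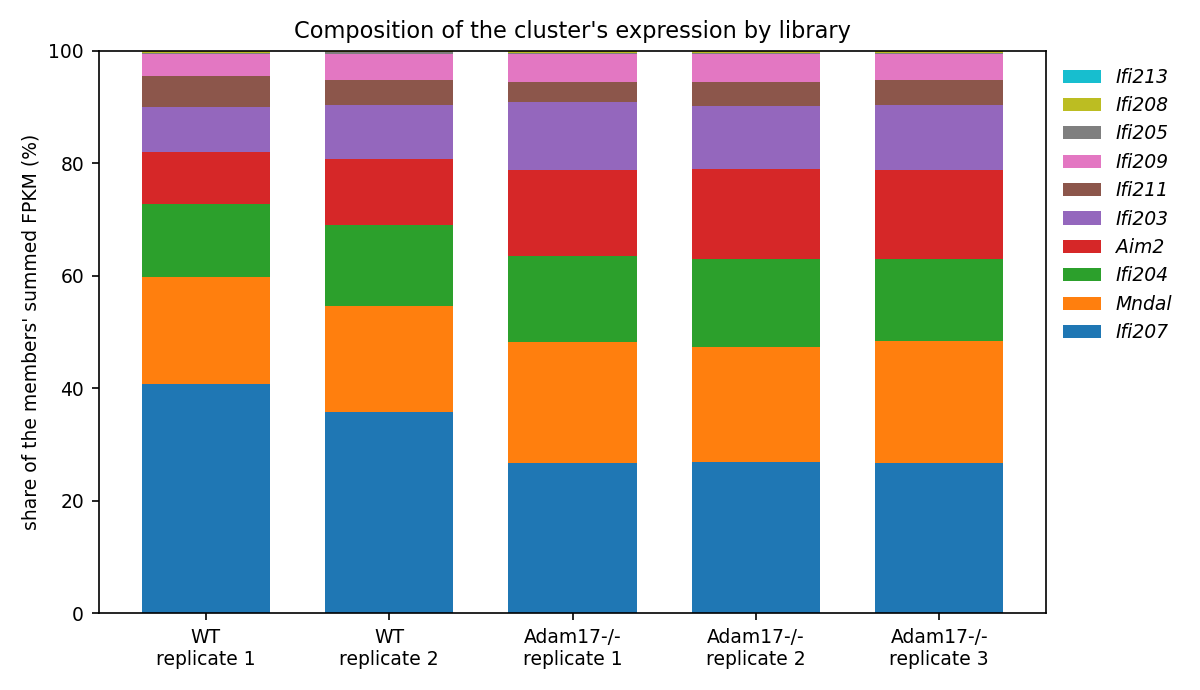
Share of each member in the summed FPKM of the 10 members, in percent, for each library (stacked bars, from the member with the highest mean share in the WT libraries at the bottom). The lowest segment, Ifi207, takes 40.7% and 35.8% of the WT bars and 26.8% to 26.9% of the Adam17-/- bars.

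Members of the cluster resemble each other in sequence, so the origin of a read can be uncertain. Expected counts that are not whole numbers show that reads were divided between transcripts. Ifi213 and Ifi208 had counts that were not whole in 1 of the 5 libraries each, Aim2 in 3, and Ifi207 in 4, whereas the other 6 members had such counts in every library. In comparison, 14.0% to 14.7% of all gene sums in a library were not whole. Of the windows of 150 bases, the read length, in the GENCODE transcripts of the members, 46.4% in Ifi211 and 36.1% in Ifi205 occurred letter for letter in another gene, namely Ifi204, Ifi205, and Mndal for Ifi211, and Ifi211 and Mndal for Ifi205. The share was 10.8% for Ifi204 (with Ifi211), 10% for Ifi209 (with Ifi214), and 2.2% or less for the others, with none for Aim2 and Ifi207. The values of Ifi211 and Ifi205 are therefore uncertain. Aim2 and Ifi207 had no identical window of this length in another gene, but their counts that were not whole show that some of their reads were divided too. These windows come from the reference strain, and sites at which BALB/c differs were not analysed here. The GENCODE transcripts also differ in part from the RefSeq transcripts counted. For the Ifi203 transcript NM_001302649, 4883 bases were counted, and its GENCODE match has 3054. At 50 bases, the share of windows found in another gene was 7.2% for Ifi207, 23.9% for this Ifi203 transcript, and 27.2% for Mndal.

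**Figure D5:**
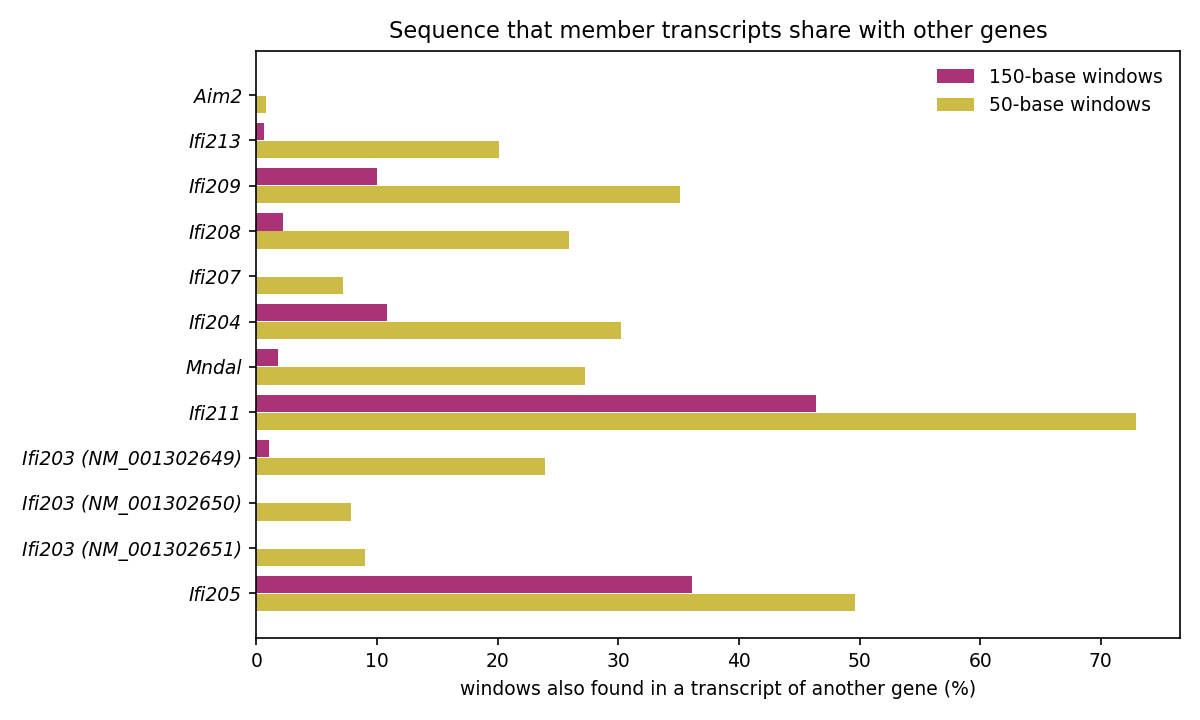
Percent of all windows of 150 or 50 bases in a member's transcript that also occur in a transcript of another gene, for 12 GENCODE transcripts of the members. Ifi211 and Ifi205 stand out with 46.4% and 36.1% at 150 bases, and Aim2 and Ifi207 have no shared window of that length.

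At the level of transcripts, 13 transcripts of the members were tested, and 4 of them were called higher by edgeR, compared with 3.41% of the 17618 transcripts tested. These were the only listed transcripts of Aim2 (NM_001013779, adjusted p = 0.0282), Ifi204 (NM_008329, adjusted p = 0.0406), and Mndal (NM_001170853, adjusted p = 0.0314), and 1 of 3 transcripts of Ifi203. The adjusted p-values lay close to the threshold. Without any 1 of the 3 Adam17-/- replicates, edgeR called 0 of the member transcripts, with 5 at an unadjusted p under 0.05. The share of all transcripts called in these fits is not given here, so the 0 is not a result about the members. The transcript of Ifi209 did not pass the test here (NM_175026, log2 fold change 0.53, adjusted p = 0.0629 from edgeR).

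Ifi203 was measured through 3 transcripts. The most abundant, NM_001302649, was at 85.4 and 90.9 CPM in the WT cocultures and at 156.6, 137.4, and 148.4 CPM in the Adam17-/- cocultures. It accounted for most counts of the gene and was called, with a log2 fold change of 0.77 (SE 0.0873, adjusted p = 0.0270 from edgeR). NM_001302651 was at 12.9 ± 5.74 and 20.5 ± 2.83 CPM (SD, n = 2 and n = 3), with the groups apart, and NM_001302650 at 1.33 ± 0.734 and 2.39 ± 0.799 CPM, with overlap, and neither was called (adjusted p = 0.245 and 0.384 from edgeR). For Ifi211, NM_001033450 was at 17.9 ± 3.21 and 17.6 ± 1.30 CPM and NM_001301745 at 4.27 ± 0.215 and 5.20 ± 1.03 CPM, and neither was called (adjusted p = 0.998 and 0.497 from edgeR).

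Of the other PYHIN genes of the locus, Ifi202b encodes p202, which has no pyrin domain and inhibits AIM2. Its counts were whole in every library and came to 105.1 and 144.4 CPM with WT cells and 167.8, 150.8, and 165.3 CPM in the Adam17-/- cocultures. All Adam17-/- libraries lay above the WT libraries, WT replicate 2 by a small margin. The log2 fold change was 0.37 (SE 0.127), with an adjusted p of 0.0503 from edgeR. Without WT replicate 2 the log2 fold change was 0.62 (adjusted p = 0.000126) and without WT replicate 1 it was 0.16 (adjusted p = 0.160), which bound the adjusted p over 14 alternative settings, and it was called higher in 8 of the 14. Ifi214 was at 1.10 and 0.936 CPM in the WT cocultures and at 1.63, 1.42, and 1.38 CPM in the Adam17-/- cocultures, with a log2 fold change of 0.56 and an adjusted p of 0.173 from edgeR. Ifi206 is not listed in any library.

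Of 10 flanking protein-coding genes with counts, 8 were tested, and edgeR called Chml higher (log2 fold change 0.45, adjusted p = 0.0419) and Tagln2 and Fh1 lower (log2 fold changes -0.45 and -0.29, adjusted p = 0.00565 and 0.0343), against 14.9% called higher and 16.8% called lower of all genes tested. Tagln2, which encodes an actin-binding protein, lies 842172 bases before Aim2. Fh1, which encodes fumarate hydratase, and Chml, which encodes a Rab escort protein, lie 1569623 and 1650482 bases after Ifi205. The nearest of the 10 genes, Dusp23, lies 716573 bases away, farther than the 682.2 kb that the members span.

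The partners of AIM2 and other DNA-sensing genes were examined next. Of 32 tested genes of this list, 2 were called higher and 7 lower by edgeR, against 14.9% and 16.8% of all genes tested, and the median log2 fold change was -0.09. The higher genes were Casp4, which encodes the caspase that senses cytosolic lipopolysaccharide, with a log2 fold change of 0.64 (SE 0.112, adjusted p = 0.00332 from edgeR), and Casp1. Casp1, the protease of the AIM2 inflammasome, was at 37.5 and 47.0 CPM in the WT cocultures and at 55.9, 51.1, and 52.4 CPM in the Adam17-/- cocultures, a log2 fold change of 0.33 (adjusted p = 0.0451 from edgeR). Il1b, its cytokine substrate, was called lower, with 156.7 and 169.5 CPM against 99.7, 115.6, and 108.5 CPM, a log2 fold change of -0.60 (adjusted p = 0.00163 from edgeR). Nlrp3, the sensor of another inflammasome, and Unc93b1, the chaperone of endosomal nucleic acid receptors, had log2 fold changes of -0.69 and -0.63 (adjusted p = 0.000816 and 0.00593 from edgeR).

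The adaptor gene Pycard was at 22.1 and 20.8 CPM in the WT cocultures and at 19.5, 18.1, and 21.1 CPM in the Adam17-/- cocultures, which overlapped. Log2 fold changes were -0.13 for Pycard, -0.12 for Gsdmd, which encodes the pore-forming gasdermin D, and 0.18 for Il18, with adjusted p-values from edgeR of 0.368, 0.286, and 0.440, and none of the 3 genes passed the test. Ninj1, which encodes a protein of membrane rupture in lytic cell death and is named here after its values were seen, was called lower (log2 fold change -0.42, adjusted p = 0.00391 from edgeR). In the other main DNA-sensing pathway, Cgas and Sting1 had log2 fold changes of 0.18 and -0.13 (adjusted p = 0.322 and 0.233 from edgeR).

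Since the IFI200 genes are named for interferon, other genes of the interferon response were compared. Of 38 tested genes of this list, 7 were called higher, a share near the 14.9% of all genes tested, and 2 lower, against 16.8%. The median log2 fold change was 0.01, the same as over all genes tested. The largest increases were those of the guanylate-binding proteins Gbp5 (log2 fold change 0.94, adjusted p = 0.00227 from edgeR) and Gbp3 (0.60, adjusted p = 0.0301) and of the antiviral GTPase Mx2 (0.63, adjusted p = 0.0178). Gbp5 was at 4.13 and 4.92 CPM in the WT cocultures and at 9.03, 8.49, and 8.53 CPM in the Adam17-/- cocultures. The receptor genes Ifnar2 and Ifngr1 were lower (log2 fold changes -0.37 and -0.32, adjusted p = 0.00867 and 0.0135 from edgeR), and Cxcl9 and Ifng are not listed in any library. Among the members with a promoter entry, 2 of the 7 with an ISRE match were called higher (Ifi203 and Mndal). So were both without a match in the window searched (Aim2 and Ifi209), against 14.9% of all genes tested. Of the uncalled members with a match, Ifi205, Ifi208, and Ifi213 were expressed at low levels. The part of the motif in these calls was not tested.

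Markers of the labelled cell type and of some other cell types also differed between the cocultures. All 11 macrophage markers were expressed, and their summed level was 28450 to 29300 CPM in the WT and 18440 to 20580 CPM in the Adam17-/- cocultures, with 8 of 11 called lower by edgeR, against 16.8% of all genes tested. The 10 neutrophil or precursor markers summed to 334 to 406 CPM in the WT and 1158 to 1332 CPM in the Adam17-/- cocultures, and 9 of 10 were called higher, against 14.9% of all genes tested. Of the megakaryocyte markers, 5 of 5 were called higher (67.3 to 73.9 against 103.7 to 183.6 CPM), and of the 6 dendritic cell markers 2 of 4 tested (8.27 to 11.4 against 18.2 to 23.9 CPM). Of 7 lymphocyte markers, 1 was tested and did not pass the test (0.541 to 1.67 against 1.48 to 2.57 CPM). Markers of mammary cancer cells summed to 11.5 to 13.3 CPM in the WT and 12.0 to 14.3 CPM in the Adam17-/- cocultures, nearly all of it from Cdh1, which myeloid cells also express. Of the keratins, Krt18 was above the floor in every library (0.271 to 0.438 CPM) and Krt7 ranged from 0.0658 to 0.680 CPM, whereas Epcam had a level above 0 only in WT replicate 2, at 0.0541 CPM, and Krt5 was at 0 throughout. The part of these cells in the changes of the cluster was not tested, and in bulk RNA a different number of cells of a type and a different amount of RNA per cell cannot be told apart.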

How the data were processed

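RNA-Seq libraries of BMDMs cocultured with WT (n = 2) or Adam17-/- (n = 3) 4T1 cells were analyzed, grouped by the sample labels. According to the methods and the processing notes, the authors sequenced poly(A)-selected libraries on a BGISEQ-500 platform, aligned reads to GRCm38 with HISAT and quantified transcripts with RSEM and Bowtie2 (versions not given in the sources used here). The deposited files hold, per RefSeq transcript, an expected count, which is not normalized and divides ambiguous reads between transcripts, and an FPKM value, which the authors normalized to transcript length and library size. The lowest listed FPKM was 0.01, and transcripts not listed were taken as 0.

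Sums of the expected counts per gene were rounded. The quasi-likelihood test of edgeR 4.0.16 (R 4.3.3, normalization by TMM, filter by filterByExpr) was run over all 12576 genes that passed the filter, with Benjamini-Hochberg adjustment and no covariates, and likewise over 17618 transcripts. Intervals are 95% intervals from the same fit. Alternatives were DESeq2 1.42.0, limma 3.58.1 on log2(FPKM + 0.1) and log2(FPKM + 1), other scalings and filters, counts cut down to whole numbers, the replicate number as a block, and each library left out in turn. A count was taken as not whole if it was more than 0.005 per listed transcript away from a whole number. Tables were handled with Python 3.11.15 and pandas 2.3.3, promoters were aligned with Biopython 1.88, and figures drawn with matplotlib 3.10.9.

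The members, lists, and motifs were chosen with earlier results of these data known. Named are all members and their transcripts with at least 10 counts in 1 library, the other PYHIN genes (Pydc3 and Pydc4 are synonyms of the members Ifi208 and Ifi213, and Pydc5 was not matched), up to 3 called genes in each direction with the largest log2 fold change of the DNA-sensing and interferon lists, the partners of AIM2 with Cgas and Sting1, Adam17, and, of the nearest 5 genes with counts on each side of the cluster, those that were called. Nothing in the labels says whether repeats came from separate mice, so p-values measure the spread between these samples, which may be technical. Replicates were checked for libraries deposited more than once, and none was found: the chi-square per degree of freedom was 25.7 between the WT libraries and 5.22 to 6.32 between the Adam17-/- libraries. This does not show that they came from separate cultures. The WT libraries thus differed more from each other than the Adam17-/- libraries did. The sources used here do not say whether strand was used in counting.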

Additional observations from a re-analysis of the deposited data

How the results depend on the processing

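The same 5 members (Aim2, Ifi203, Mndal, Ifi204, and Ifi209) were called higher under all 14 alternatives, with log2 fold changes from 0.76 to 1.07 for Aim2, 0.63 to 0.88 for Ifi203, 0.46 to 0.63 for Mndal, 0.39 to 0.61 for Ifi204, and 0.38 to 0.66 for Ifi209, and 5 or 6 members were called in all. The sixth was Ifi207, called lower, without WT replicate 2, and Ifi208, called higher, without WT replicate 1 and in limma on log2(FPKM + 1) (adjusted p = 0.0468). In limma on log2(FPKM + 0.1) it was Ifi213, called higher (0.91, adjusted p = 0.0455), whose log2 fold change was 0.22 in limma on log2(FPKM + 1). The share of all genes called higher meanwhile ranged from 8.73% without Adam17-/- replicate 1 to 24.0% with library size only, where 3019 genes were higher and 1077 lower, compared with 1869 and 2114. With the log2 fold change limit of 1, 1 member was called with library size only and in both limma fits, and 0 to 1 with a library left out. The log2 fold change of Ifi211 was -0.093 without WT replicate 2 and 0.18 without WT replicate 1, and the cause was not tested. With scaling by library size only, all genes had a median log2 fold change of 0.16, which moved that of Ifi207 to -0.04, and the log2 ratio of the cluster sum to 0.44. This ratio was 0.35 with upper quartile factors, 0.47 as a sum of FPKM, 0.61 without Ifi207, and 0.27 to 0.32 with a library left out, compared with 0.30. Of the member transcripts, 0 to 4 were called with a library left out. Replicate numbers 1 and 2 occur in both groups, but nothing says that they pair the samples, and the deviations of same-numbered libraries correlated at -0.12 and -0.05. With the replicate number as a block, 5 members and 0 member transcripts were called by edgeR (5 transcripts at an unadjusted p under 0.05). The share of all transcripts called is not given here for this fit or for those with a library left out. The fit on transcripts with whole counts in all 5 libraries gave no value, since 0 of the 13 member transcripts qualified. Ifi213 was not tested at 10 or more counts in every sample, or without Adam17-/- replicate 1 or 2. Depth limits Ifi213, Ifi205, and Ifi208, with 5 to 52.84 counts per library.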
